A study of Mus musculus with 6 samples.

Results

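Chemokine ligand genes were examined in 6 RNA-seq libraries of mouse lung group 2 innate lymphoid cells (ILC2s), lymphocytes without rearranged antigen receptors that secrete type 2 cytokines. The set held 10 genes chosen by name: Ccl1, Ccl3, Ccl4, Ccl5, Ccl6, Ccl9, Ccl24, Xcl1, Cxcl2 and Cxcl3. Of these, 9 had a row among the 21017 genes of the count table, and Ccl1 had none. The filter on low counts left 7 for testing, since Ccl3 and Xcl1 had too few reads. All mice were C57BL/6J of 8 weeks with the genotype IL-10GFP, a green fluorescent reporter of Il10. All were given 0.5 µg of IL-33, an alarmin that activates ILC2s, into the nose 3 times. The ILC2s of both groups were cultured for 48 h in 10 ng/mL each of IL-4, IL-7 and IL-2, although the cell type label calls them freshly sorted. A second sort split them by the reporter into IL-10-negative and IL-10-producing cells, with 3 libraries of each. The labels do not say if the 3 libraries of a group are from different mice, and p-values reflect only how libraries vary, which may be technical.

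Chemokines are small secreted proteins that guide leukocytes through G-protein-coupled receptors. CC ligands such as Ccl3, Ccl5 and Ccl24 draw monocytes, T cells and eosinophils, and CXC ligands such as Cxcl2 and Cxcl3 draw neutrophils. Xcl1 is a C chemokine that acts on dendritic cells carrying Xcr1. Most ligand genes lie in clusters that arose by duplication, and activated cells often transcribe them under the control of NF-kB.

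The promoters shown are those of the gene of the set with the highest level per kb of transcript, of its close relative, and of the tested gene with the largest fold change over all 6 libraries. Each is the 250 bases before the RefSeq start site on GRCm38.p6, 5′ to 3′ on the strand of the gene. Cxcl3 lies on the plus strand at chr5:90785851-90786100, Cxcl2 on the plus strand at chr5:90903649-90903898, and Ccl9 on the minus strand at chr11:83578637-83578886. Capitals mark matches to GGNNTTTCC (an NF-kB motif), TGANTCA (AP-1), TTGCNNAA (C/EBP), TATAAA (the TATA box) or AGATAA (bound by Gata factors), searched on both strands with overlaps allowed.
Cxcl3: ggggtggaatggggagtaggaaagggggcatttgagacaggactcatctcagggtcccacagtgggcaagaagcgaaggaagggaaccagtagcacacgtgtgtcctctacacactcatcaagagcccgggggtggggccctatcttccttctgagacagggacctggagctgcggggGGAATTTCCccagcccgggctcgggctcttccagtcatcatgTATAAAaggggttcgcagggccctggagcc
Cxcl2: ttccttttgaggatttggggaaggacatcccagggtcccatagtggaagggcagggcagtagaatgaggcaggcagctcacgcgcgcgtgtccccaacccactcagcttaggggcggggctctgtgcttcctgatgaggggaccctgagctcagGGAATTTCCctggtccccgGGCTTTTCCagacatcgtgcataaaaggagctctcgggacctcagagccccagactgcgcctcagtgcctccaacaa
Ccl9: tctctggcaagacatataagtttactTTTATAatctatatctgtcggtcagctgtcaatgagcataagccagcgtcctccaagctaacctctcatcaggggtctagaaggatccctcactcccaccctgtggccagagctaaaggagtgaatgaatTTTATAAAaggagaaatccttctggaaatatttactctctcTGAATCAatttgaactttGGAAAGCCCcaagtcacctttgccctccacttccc

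Both CXC windows held the same 9 letters, GGAATTTCC, 64 to 72 bases before the start of Cxcl3 and 88 to 96 bases before that of Cxcl2. Cxcl2 held a second match, GGCTTTTCC, 69 to 77 bases before its start. In Ccl9 the NF-kB motif was matched on the opposite strand, 27 to 35 bases before the start, and TGAATCA matched AP-1 at 47 to 53 bases. TATAAA stood 25 to 30 bases before the start of Cxcl3, and 87 to 92 bases before that of Ccl9, where it overlapped a match on the opposite strand at 89 to 94. Ccl9 held another on the opposite strand at 219 to 224. The RefSeq table gave windows for 6 of the 9 genes, and no match to these 5 motifs was found in those of Ccl3, Ccl6 and Xcl1. Over all 32851 windows of this length, 4.93% held the NF-kB letters, 6.75% the AP-1 letters, 9.56% the C/EBP letters, 12.4% the TATA letters and 9.99% those of Gata factors. A match is a description of letters and not evidence that a factor bound there.

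Library totals ran from 47012941 to 69511433 estimated counts. Il10, on whose reporter the cells were sorted, stood at 840 to 854 CPM (counts scaled to library size with TMM factors) in IL-10-producing libraries. It stood at 13 to 14.2 CPM in IL-10-negative ones, so each library matched its label. All 14 listed ILC2 markers had a row, and in the test given next 7 were lower and 4 higher in IL-10-producing cells. Their sum was 16555 to 16701 CPM in IL-10-producing and 15759 to 15899 CPM in IL-10-negative libraries. Gata3 was lower, at 695 to 717 against 822 to 846 CPM. Il1rl1, the IL-33 receptor, was also lower, at 3260 to 3330 against 4040 to 4100 CPM. Il2ra, of the same list, was higher, at 5800 to 5890 against 4170 to 4250 CPM. Of 16654 genes tested, 35.7% differed at an adjusted p under 0.05 (edgeR quasi-likelihood test with Benjamini-Hochberg adjustment), 18.6% lower and 17.1% higher in IL-10-producing cells. Of the genes that differed, 47.8% were higher, or 36.8% when libraries were scaled by their size only.

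Chemokine ligand transcripts were scarcer in the IL-10-producing libraries. Summed over the 9 genes, their level was 121 ± 3.67 CPM in the IL-10-negative group and 65.1 ± 3.81 CPM in the IL-10-producing group (SD, n = 3). Each of the 7 genes tested was lower and none was higher, against 18.6% and 17.1% of all genes tested. In each of the 7, every IL-10-producing library lay below every IL-10-negative one, which held for 23.5% of all genes tested. Ccl4 and Ccl24 passed the filter in 3 IL-10-negative and 0 IL-10-producing libraries, and Ccl9 in 3 and 2. Their place in the test thus rested on the IL-10-negative libraries, which favours a fall but fixes neither its size nor its call. For Ccl4 and Ccl24 it also fixed that the groups would not overlap, so their lack of overlap adds nothing beside the 23.5%. The count of 7 is therefore a description, and the genes read on both sides of the comparison were Cxcl3, Cxcl2, Ccl5 and Ccl6. Their falls ranged from 1.21-fold in Cxcl2 to 3.71-fold in Ccl6. The median log2 fold change of these 4 was -0.94, that of all genes tested -0.0038. In RNA from a pool of cells, fewer cells that transcribe a gene and less RNA per cell cannot be told apart. Summed markers of T cells, of mast cells and basophils, of neutrophils and of eosinophils were also lower in all 3 IL-10-producing libraries, and their values stand with the marker lists.

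**Figure D1:**
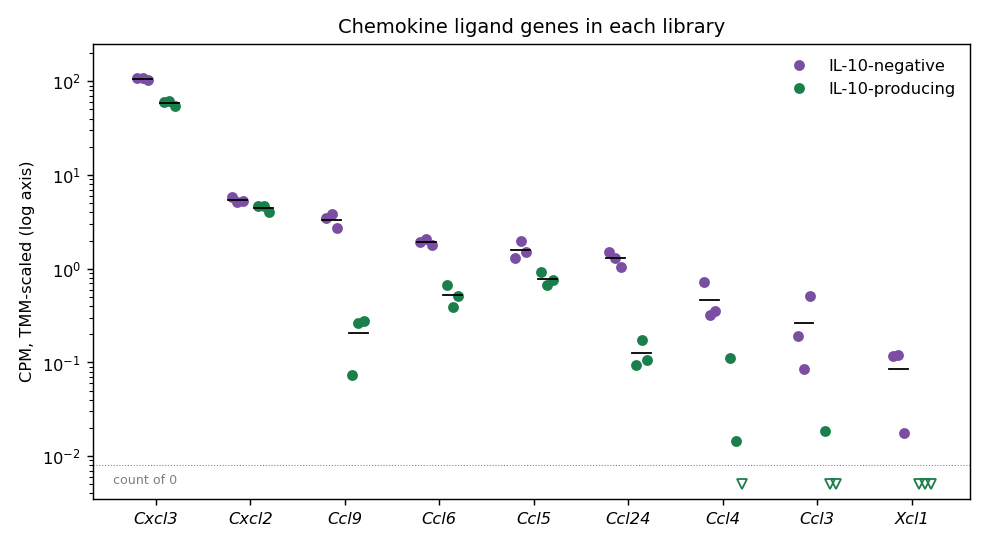
Each point is the TMM-scaled CPM of 1 library on a log axis, in order of the mean level in IL-10-negative cells, with bars at the means where no library was at 0 and open triangles for a count of 0. Cxcl3 lies between 55.1 and 109 CPM, and each CC gene and Xcl1 at 3.87 CPM or less in every library.

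Cxcl3, which encodes a neutrophil attractant, had the highest level per kb of transcript in the set (ENSMUSG00000029379.10, chr5:90786103-90789600, plus strand). It was measured at 60.1, 61.6 and 55.1 CPM in the IL-10-producing libraries and at 109, 108 and 104 CPM in the IL-10-negative ones. The groups did not overlap, and the gap between them was far wider than the spread within either. The fall was 1.81-fold (log2 fold change -0.85, SE 0.0346, adjusted p = 3.88e-16 by edgeR). Cxcl3 made up 90.6% ± 0.426 of the summed CPM of the set, not scaled for length, in IL-10-producing and 88.2% ± 0.401 in IL-10-negative libraries (SD, n = 3).

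Cxcl2, which also attracts neutrophils, lies further along chromosome 5 (ENSMUSG00000058427.10, chr5:90903871-90905938, plus strand). Its 3 IL-10-producing libraries had 4.72, 4.64 and 4.02 CPM, and the IL-10-negative ones 5.79, 5.09 and 5.33 CPM. The groups lay side by side without overlap, but the nearest libraries were close. The fall was 1.21-fold (log2 fold change -0.27, SE 0.104) and only just past the threshold, at an adjusted p of 0.0454 by edgeR. It missed the threshold under 9 of 16 alternatives, among them DESeq2 (adjusted p = 0.0902) and limma-voom (0.0646). It was also missed without any 1 of 5 libraries, with adjusted p from 0.0544 without IL-10-producing replicate 1 to 0.181 without IL-10-producing replicate 3. The others were IL-10-producing replicate 2 (0.0654) and IL-10-negative replicates 1 (0.172) and 3 (0.0793). Transcripts of Cxcl2 and Cxcl3 share a stretch of 157 identical bases, and these were the 2 genes of the set whose estimated counts were not whole numbers. Reads from that stretch can fit either gene, so how the authors' counting split them bears on Cxcl2, the rarer of the pair.

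Among the CC ligands the summed level of the 6 genes with a row was 8.89 ± 0.837 CPM in the IL-10-negative group and 1.69 ± 0.192 CPM in the IL-10-producing group (SD, n = 3). Ccl9, a ligand of Ccr1 (ENSMUSG00000019122.8, chr11:83572919-83578636, minus strand), had 4, 18 and 13 counts in the IL-10-producing libraries. The IL-10-negative libraries had 178, 227 and 154. With all 6 libraries this was the largest fold change of the 7 genes tested, from 3.35 ± 0.574 to 0.205 ± 0.113 CPM (SD, n = 3; log2 fold change -4.01, SE 0.269, adjusted p = 7.64e-12 by edgeR). The ratio of counts, scaled for library size, was 16.2 with an exact 95% counting interval of 11.5 to 23.5. IL-10-producing replicate 1, with 4 counts, had the lowest level. Without it the log2 fold change was -3.62, smaller than that of Ccl4 (-5.42).

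Ccl6, another ligand of Ccr1, lies next to Ccl9 (ENSMUSG00000018927.3, chr11:83587882-83593087, minus strand). The IL-10-producing libraries had 0.669, 0.394 and 0.513 CPM, and the IL-10-negative ones 1.91, 2.06 and 1.81 CPM. All 3 IL-10-negative libraries were close together, and the fall was 3.71-fold (log2 fold change -1.89, SE 0.233, adjusted p = 3.58e-07 by edgeR). A gene on the opposite strand, E230016K23Rik, covers Ccl6 over 5206 bp in the annotation. The sources used here do not state if strand entered the counting, and reads of the pair could not be separated.

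Ccl5 (RANTES), which attracts T cells and monocytes through receptors that include Ccr1 and Ccr3, was the tested CC gene with the smallest change (ENSMUSG00000035042.2, chr11:83525778-83530518, minus strand). Levels were 0.929, 0.671 and 0.749 CPM with IL-10 and 1.29, 1.98 and 1.51 CPM without. The IL-10-negative libraries were spread more widely, and the groups did not overlap (log2 fold change -1.03, SE 0.231, adjusted p = 0.000842 by edgeR). Ccl24 (eotaxin-2), which draws eosinophils through Ccr3, lies apart from the other ligands at chr5:135569937-135573049 on the minus strand (ENSMUSG00000004814.10). It had 5, 12 and 5 counts in IL-10-producing libraries and 78, 76 and 59 in IL-10-negative ones. The level went from 1.28 ± 0.229 to 0.125 ± 0.044 CPM (SD, n = 3; log2 fold change -3.29, adjusted p = 2.53e-08 by edgeR).

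Ccl3 and Ccl4, which encode macrophage inflammatory proteins, were near the limit of detection in IL-10-producing cells. Ccl4 (ENSMUSG00000018930.3, chr11:83662584-83664683, plus strand) had 6, 1 and 0 counts there and 37, 19 and 20 in the IL-10-negative libraries. Its ratio of counts was 11 with an exact 95% counting interval of 5.09 to 28.3, and its adjusted p by edgeR was 0.000132. The log2 fold change of Ccl4, -3.40 with all libraries, was -5.42 without IL-10-producing replicate 1, which held 6 of the 7 counts. Ccl3 (ENSMUSG00000000982.5, chr11:83647844-83649355, minus strand) had 1, 0 and 0 counts against 10, 5 and 29. IL-10-negative replicate 3 held most of the Ccl3 counts but not most of those of Ccl4. The Ccl3 ratio was 44.6 with an exact 95% counting interval of 7.6 to 1803. Xcl1 (lymphotactin; ENSMUSG00000026573.7, chr1:164931644-164935527, minus strand) had 0 counts in all 3 IL-10-producing libraries and 6, 7 and 1 in the others. A count of 0 allows up to 3 counts over the group (0.0177 CPM), and against that limit the level was at least 4.73-fold lower. This takes the 14 IL-10-negative counts as they stand, and the exact 95% lower limit of the ratio, with the error of both groups, was 3.36. An annotated gene on the opposite strand, Gm20743, covers Xcl1 over 3884 bp. These intervals and limits were taken from counts summed over each group and take in only the error of counting. They leave out the spread between libraries, and PCR copies were not told apart, so they may be too narrow.

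Levels of different genes were compared as CPM per kb of the longest coding transcript. In IL-10-negative cells the order was Cxcl3 at 105 CPM per kb, Ccl5 at 3.00, Cxcl2 at 2.91, Ccl6 at 1.34, Ccl9 at 1.11, Ccl24 at 0.991, Ccl4 at 0.704, Ccl3 at 0.345 and Xcl1 at 0.161. The libraries of each of these genes overlapped those of the next in order, except after Cxcl3 and between Cxcl2 and Ccl6. In IL-10-producing cells Cxcl3 stood at 58.0 CPM per kb, Cxcl2 at 2.40, Ccl5 at 1.47 and Ccl6 at 0.365. These 4 did not overlap each other. Ccl24 followed at 0.0965, Ccl9 at 0.0682, Ccl4 at 0.0637 and Ccl3 at 0.00809, with libraries that overlapped from each to the next.

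The ligand genes fell into clusters, and neighbours within a cluster differed in how far they moved. On chromosome 11, Ccl5, Ccl9, Ccl6, Ccl3 and Ccl4 lie within 139 kb with no other row of the table between them. Within 100 kb on either side the nearest genes tested were Taf15 (78.9 ± 2.61 against 73.9 ± 0.725 CPM) and Heatr6 (35.1 ± 1.87 against 39.2 ± 1.8 CPM). Both passed edgeR's test: Taf15 rose by 0.10 (adjusted p = 0.0151) and Heatr6 fell by 0.16 (adjusted p = 0.00807) on the log2 scale. On chromosome 5, Cxcl3 and Cxcl2 lie within 120 kb, with Cxcl1 between them. Cxcl1, another ligand of Cxcr2, was at 0.0965 ± 0.047 against 0.0946 ± 0.0612 CPM (SD, n = 3) and was not tested. Ppbp, before Cxcl3, was at 0.319 ± 0.148 against 0.0756 ± 0.0587 CPM (SD, n = 3) and was not tested either. Of the ligand genes just before Cxcl3, Cxcl5 (0.505 against 0.551 CPM, adjusted p = 0.803) and Pf4 (0.239 against 0.272 CPM, adjusted p = 0.799) did not pass edgeR's test, nor did Mthfd2l beyond Cxcl2 (5.08 against 4.89 CPM, adjusted p = 0.718).

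**Figure D2:**
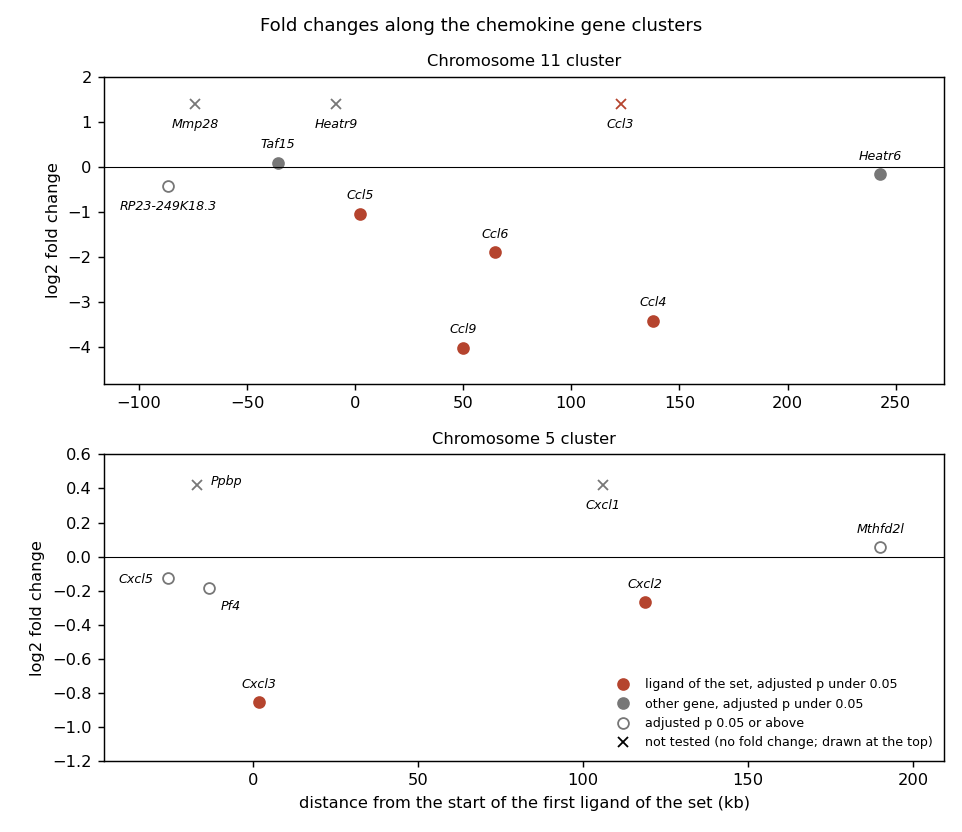
Each point is a gene with a row in the count table, placed by the distance in kb from the first ligand of the set in its cluster, with its log2 fold change (IL-10-producing over IL-10-negative) on the vertical axis. The ligands of the set, in red, lie between -4.01 and -0.27, and the flanking genes tested lie between -0.42 and 0.10 (crosses at the top are genes not tested).

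Most other ligand genes of the family had no row or did not pass the test. Of 31 listed, 13 had a row and 8 were tested. Of these, 1 was lower and none higher in IL-10-producing cells, against 18.6% and 17.1% of all genes tested, and the median log2 fold change was -0.11. The 1 was Cxcl10, an interferon-induced ligand of Cxcr3, at 0.0221 ± 0.0196 against 0.227 ± 0.0249 CPM (SD, n = 3; adjusted p = 0.000664 by edgeR). Cxcl10 also passed the filter only through the IL-10-negative libraries, and it was singled out after its values were seen. The number lower moved between 0 and 2 over the alternatives.

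Of the receptors described here that bind ligands of the set, Ccr1 and Ccr3 were higher in IL-10-producing cells, while Xcr1 and Ccr8 were slightly lower. Ccr1, which binds the products of Ccl3, Ccl5, Ccl6 and Ccl9, was at 113 CPM in each of the 3 IL-10-producing libraries. The IL-10-negative libraries had 55.2, 52.4 and 53.4 CPM. Ccr1 thus rose 2.11-fold (log2 fold change 1.08, SE 0.0289, adjusted p = 9.60e-20 by edgeR), with no overlap between groups. Ccr3, the receptor of Ccl24, rose from 8.21 ± 0.195 to 13.8 ± 0.689 CPM (SD, n = 3; log2 fold change 0.75, adjusted p = 2.86e-09 by edgeR).

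Xcr1, the receptor of Xcl1, fell by 0.09 on the log2 scale, from 60.4 ± 0.801 to 56.6 ± 1.12 CPM (SD, n = 3), a call lost with DESeq2 (adjusted p = 0.0503) and without any 1 of 4 libraries. These were IL-10-producing replicates 1 (adjusted p = 0.0616) and 2 (0.132) and IL-10-negative replicates 1 (0.0634) and 2 (0.0886). Ccr8, the receptor of Ccl1, fell by 0.08, from 93.9 ± 2.98 to 88.7 ± 2.27 CPM (SD, n = 3). Its call was lost with DESeq2 (adjusted p = 0.0697), and without IL-10-producing replicate 1 (adjusted p = 0.207) or 3 (0.0543) or IL-10-negative replicate 2 (0.0706) or 3 (0.206). Cxcr2, the receptor of Cxcl2 and Cxcl3, was nearly silent at 0.73 ± 0.07 against 0.688 ± 0.344 CPM (SD, n = 3; adjusted p = 0.843 by edgeR), and its direction turned without IL-10-negative replicate 3. Of 24 receptor genes listed, 22 had a row and 20 were tested, with 4 higher and 9 lower (median log2 fold change -0.04), against 17.1% and 18.6% of all genes tested. Ccr2 rose by 0.08, Cxcr6 fell by 0.10 and Cxcr4 fell by 0.42 on the log2 scale. Of the 9 lower, the largest falls were in genes under 5 CPM in both groups. Cxcr3 was at 0.0576 ± 0.0663 against 2.20 ± 0.285 CPM (SD, n = 3; log2 fold change -5.31). Ccr6 fell by 2.80, Cxcr5 by 2.43 and Ccr9 by 1.74 on the log2 scale. Cxcr3, Ccr6 and Cxcr5 passed the filter in 0 IL-10-producing libraries.

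**Figure D3:**
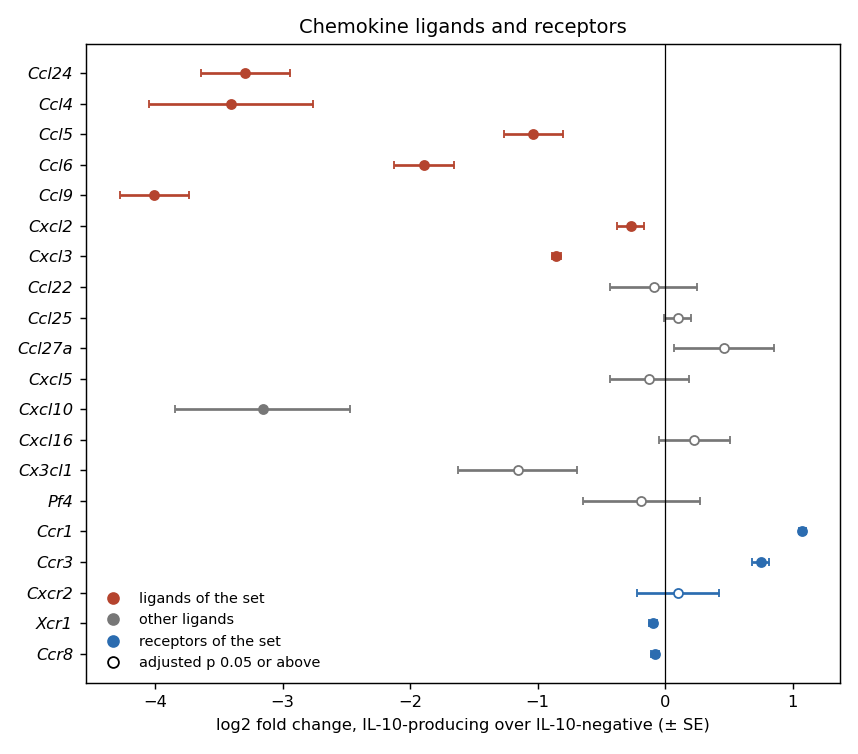
Points are log2 fold changes, IL-10-producing over IL-10-negative, with bars of 1 SE from edgeR, for the tested ligands of the set (red), the other tested ligands (grey) and receptors of the set (blue). Open points did not pass. All red points lie left of 0, while Ccr1 and Ccr3 lie at 1.08 and 0.75.

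Factors that act on chemokine transcripts went both ways, with more lower than higher. The list of 16 held NF-kB subunits, their inhibitors and proteins that govern mRNA decay, some of them through AU-rich elements. Of these, 12 were lower and 3 higher in IL-10-producing cells (median log2 fold change -0.40), against 18.6% and 17.1% of all genes tested. Nfkb2, an NF-kB subunit, fell by 0.54 on the log2 scale, from 104 ± 0.679 to 71.0 ± 3.15 CPM (SD, n = 3). Nfkbia, which holds NF-kB in the cytoplasm and is itself an NF-kB target, fell by 0.48, and Tnfaip3, another inhibitor and target, by 0.78. The decay factors moved apart from each other. Zfp36 (tristetraprolin) rose from 108 ± 2.16 to 142 ± 4.13 CPM and Zfp36l2 from 353 ± 5.41 to 443 ± 11.9 CPM, whereas Zfp36l1 fell from 116 ± 0.981 to 74.7 ± 1.33 CPM (SD, n = 3). Elavl1 (HuR), which stabilises mRNAs with AU-rich elements, rose by 0.10, a call lost without IL-10-negative replicate 1 (adjusted p = 0.0573).

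Of 10399 other genes with a mean of at least 5 CPM, those whose profile over the 6 libraries was most like that of Cxcl3 were Cd74, Gda and Nt5e. Likeness was the root mean square difference of log2 CPM after each gene was centred on its own mean, and it was 0.0293, 0.0358 and 0.0378. As Cxcl3 varied mainly between the groups, this likeness mostly reflects a similar fold change, and shared control was not tested. Cd74 stood at 7.45, 8.03 and 6.72 CPM with IL-10 and at 13.8, 13.5 and 13 CPM without.

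Summed markers of T cells, mast cells and basophils, neutrophils and eosinophils were lower in IL-10-producing libraries, as the chemokine genes were. Sums were higher for NK cell and ILC1, for B cell, and for epithelial and stromal markers. Yet most tested markers of NK cells and ILC1 and of B cells were lower (median log2 fold change -4.91 and -0.99). The counts below stand beside 18.6% lower and 17.1% higher among all genes tested. Of 11 mast cell and basophil markers, all 11 were lower in IL-10-producing libraries, with a summed level of 13.3 to 15.6 CPM against 75.8 to 80.6 CPM. Of 9 neutrophil markers with a row, 5 were tested and 4 were lower (1.69 to 2.44 against 38.4 to 41.8 CPM), with Mpo and Elane, made by immature neutrophils, lower and S100a8 between 0.0214 and 0.273 CPM over the 6 libraries. The eosinophil markers Epx and Prg2 had 0 or 1 count per library in IL-10-producing cells, and the 4 markers with a row summed to 2.92 to 3.39 CPM in IL-10-negative ones. Of 14 T cell markers, 12 were lower and 1 higher (173 to 177 against 240 to 244 CPM). Cd8a, a coreceptor of cytotoxic T cells, was at 0.0594 ± 0.0043 against 15.3 ± 0.408 CPM, and Cd8b1 at 0.0809 ± 0.0756 against 8.01 ± 0.25 CPM (SD, n = 3). Markers short of the filter in IL-10-producing libraries, as Epx, Prg2 and Cd8a were, could be tested only through the IL-10-negative ones. This favours a fall, so the counts of lower markers in these lists are a description. NK cell and ILC1 markers had 5 of 7 lower and 2 higher. Their sum, mostly Gzmb, was 79.9 to 82.7 against 68.5 to 69.7 CPM, and Ncr1 and Klre1 were at 0 in all IL-10-producing libraries.

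Macrophage, monocyte and dendritic cell markers had 5 of 11 lower and 2 higher, against 18.6% and 17.1% of all genes tested. Without Xcr1, which is also in the receptor list, their sum was 13.6 to 14 against 13.2 to 14.4 CPM. C1qa, C1qb, C1qc, Marco and Fcgr1 of this list had no row. B cell markers had 5 of 7 lower and 1 higher (41.7 to 44.3 against 37.1 to 38.2 CPM), and epithelial and stromal markers had 2 of 4 lower and 1 higher (119 to 125 against 105 to 113 CPM). Beside these, the CC ligands of the set summed to 1.52 to 1.90 against 7.98 to 9.62 CPM, and Cxcl3 ranged from 55.1 to 61.6 against 104 to 109 CPM. The part that such cells had in the chemokine differences was not tested.

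**Figure D4:**
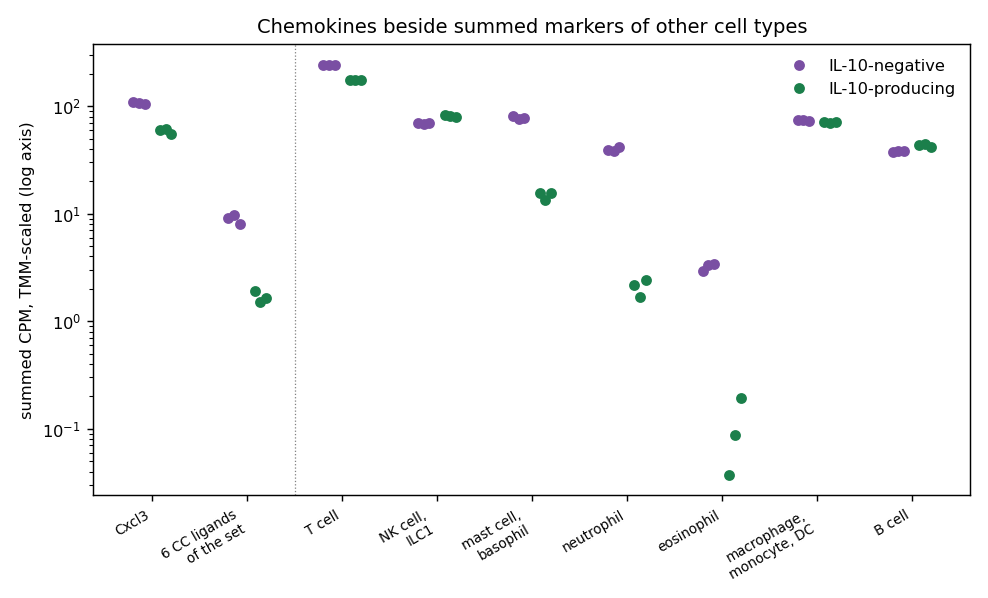
Each point is the summed TMM-scaled CPM of 1 library on a log axis, for Cxcl3, for the 6 CC ligands of the set and for 7 marker lists. The T cell, mast cell and basophil, neutrophil and eosinophil sums are lower in all IL-10-producing libraries, as are Cxcl3 and the CC ligands.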

How the data were processed

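RNA was measured in 6 libraries, 3 of IL-10-producing and 3 of IL-10-negative ILC2s. The submitters' processing notes name Partek, STAR 2.5.3a and bcl2fastq 2.17.1.14, and the build mm10. The annotation release and strand setting are not given in the sources used here. The authors deposited estimated counts per gene, of which 50.1% were not whole within 0.000001, and a table of normalized signal for 13824 genes. That signal equalled the deposited count plus 1 times a factor per library (within 1%).

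Estimated counts were rounded and tested over the whole table with edgeR 4.0.16 (R 4.3.3): TMM, filterByExpr (minimum count 10, minimum total 15), the quasi-likelihood F test with group as the only term, and Benjamini-Hochberg adjustment at 0.05. The test was checked on simulated data. Positions are 1-based, and transcript lengths came from GENCODE M21. Of 19917 identifiers found there, all had equal coordinates after 1 was subtracted from the listed stop. Promoters came from RefSeq on GRCm38.p6.

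The genes and lists were chosen with earlier results of these data known. Named were all genes of the set, receptors that bind them, and from other lists up to 4 genes per direction with the smallest p, past the threshold and at 5 CPM or more in the higher group, with the 3 genes most like Cxcl3. Genes flanking the clusters, Cxcl10, Cxcr3, Ccr6, Cxcr5, Ccr9 and single markers were named outside this rule, after their values were seen. Alternatives were scaling by library size only or by DESeq2 size factors, no filter, a filter of 50 counts in 3 libraries, DESeq2 1.42.0, limma-voom and limma 3.58.1 on log2 of the normalized values plus 1 or 0.1. Further ones were a test against a 1.2-fold change, a replicate block and leaving out each library. Of 100 marker genes in 9 lists, 13 had no row. Between replicates of a group, chi-square over genes was 2.40 to 2.93 times that of Poisson sampling, so none was a copy of another. A receptor gene that the naming rule covers is not reported here.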

Additional observations from a re-analysis of the deposited data

How the results depend on the processing

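Every fold change of the 7 tested ligand genes kept its direction in each alternative that gave a value. Calls of Cxcl3, Ccl5, Ccl6, Ccl9, Ccl24 and Ccl4 held in all of them, 16 each and 13 for Ccl4, and that of Cxcl2 held in 7 of 16. Log2 fold changes ran from -0.89 to -0.81 for Cxcl3, -1.17 to -0.47 for Ccl5, -2.11 to -0.82 for Ccl6, -3.65 to -0.85 for Ccl24, -4.28 to -1.61 for Ccl9 and -5.42 to -2.92 for Ccl4. The values nearest 0 of Ccl5, Ccl6, Ccl9 and Ccl24 came from limma with a pseudocount of 1. Both ends for Ccl4 came from leaving out a library. The number of ligand genes of the set that were lower was 6 to 8 over the alternatives, also when a library was left out, and none was higher. Without a filter Ccl3 (adjusted p = 0.000514) and Xcl1 (0.0162) passed edgeR's test as lower. The summed level ran from 63.7 to 67.3 CPM in IL-10-producing and from 120 to 123 CPM in IL-10-negative cells without 1 library.

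Of all genes, 5943 changed, 1317 against a 1.2-fold change, and 5232 to 5519 without 1 library. Against 1.2-fold, 4 receptor genes were lower and 2 higher, where 9 and 4 had been, and 6 to 8 lower and 4 to 5 higher without 1 library. Of the other ligand genes 1 was lower, but 2 with limma-voom, 2 with the replicate block and 0 with the filter of 50 counts or with limma on the normalized values at either pseudocount. Without a filter 1 was higher, and without 1 library 1 to 2 were lower and 0 to 1 higher. The log2 fold change of Cxcr2 turned to -0.21 without IL-10-negative replicate 3, and ran up to 0.52 without IL-10-negative replicate 1. Elavl1 also lost its call with library size only (adjusted p = 0.0592). The cause was not tested.

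No pairing of the libraries by replicate number was seen: correlations of same-numbered deviations were -0.042 to -0.021. Such low correlations cannot show that same-numbered libraries had no shared source, and the labels state no pairing. With the replicate block 7 genes of the set were lower, and the count over all genes was 5817. Ligand genes under 1 CPM rest on few reads, and depth limits their fold changes.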
